A study of Mus musculus with 9 samples.

Results

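The 9 genes Trim37, Abi3bp, Hn1l, Rassf4, Clcn6, Pdxk, Atg4c, Dock1 and Ebna1bp2 had near 0 reads in all 3 libraries of anti-PD-1 treated mice and were present elsewhere. They were picked from 45808 genes of the count table for that pattern, on the values of these same 9 libraries. Their low level in the anti-PD-1 libraries, and any difference between those libraries and the others, is therefore a description and has no test. The libraries held RNA of tumour-infiltrating ICOS+ CD4 T cells, sorted by flow cytometry from C57BL/6J mice on day 12 after injection of MC38 cells, a mouse colon adenocarcinoma line. There were 3 mice given anti-PD-1, 3 given anti-CTLA-4 and 3 in the Control group, 1 library per mouse, and every group carried the same tumour in the same strain. The treatment of the control mice, the antibody clones and doses, and the number of cells sorted are not stated in the labels. Each mouse gave little RNA, so a single-cell amplification kit was used, per the labels' protocols.

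PD-1 and CTLA-4 are inhibitory receptors of T cells that antibodies can block, and ICOS is a costimulatory receptor carried by activated T cells. The 9 genes are not known as a pathway and act in separate processes. Trim37 encodes a ubiquitin ligase that restrains the assembly of centrosomes, and Ebna1bp2 a nucleolar protein needed for assembly of the large ribosomal subunit. Hn1l, now named Jpt2, encodes a protein that binds the calcium-releasing messenger NAADP, known from human and rat T cells. Rassf4 encodes a Ras-association domain protein of the family that binds MST kinases, and Dock1 an exchange factor that activates Rac. Clcn6 encodes an endosomal chloride/proton exchanger, Atg4c a protease that processes ATG8 proteins in autophagy, Pdxk the kinase that makes the active form of vitamin B6, and Abi3bp a protein of the extracellular matrix.

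The genes lie on 7 chromosomes. On GRCm38, in the GENCODE M21 annotation, Trim37 (ENSMUSG00000018548) spans 87127077 to 87220683 of chromosome 11 on the plus strand, and Abi3bp (ENSMUSG00000035258) 56477878 to 56690135 of chromosome 16 on the plus strand. Hn1l (ENSMUSG00000024165) spans 24937419 to 24960689 of chromosome 17 on the minus strand, and Rassf4 (ENSMUSG00000042129) 116633008 to 116673952 of chromosome 6 on the minus strand. Pdxk (ENSMUSG00000032788) spans 78436744 to 78464975 of chromosome 10 on the minus strand, and Dock1 (ENSMUSG00000058325) 134670654 to 135173639 of chromosome 7 on the plus strand. Chromosome 4 holds Clcn6 (ENSMUSG00000029016, 148004259 to 148038821, minus strand), Atg4c (ENSMUSG00000028550, 99193934 to 99259787, plus strand) and Ebna1bp2 (ENSMUSG00000028729, 118620799 to 118627776, plus strand). The spans differ widely, between 6.98 kb for Ebna1bp2 and 503 kb for Dock1. The median exon length of the 9 genes was 5.93 kb, against 5.01 kb over the 7754 tested genes with a gene model.

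The start regions of the genes are shown to let their sequence be compared, since the genes were picked for 1 shared pattern; nothing in the data measured these regions. The choice asked for a low anti-PD-1 level and for presence in other groups, without setting the level in each other library. In anti-CTLA-4 replicate 1, for example, Ebna1bp2 was at 119 CPM and Clcn6 at 0.0328 CPM. RefSeq promoter windows on GRCm38.p6, from 250 bases before to 50 after a start, were found for 8 of the 9 genes, with a pair of windows for Atg4c. The windows of Trim37, with the most CG dinucleotides, of Hn1l, the gene present in all 6 other libraries, and of Rassf4, with fewer CG dinucleotides than the median tested gene, follow, 5′ to 3′ on the strand of the gene, with each CG dinucleotide in capitals. Their positions are chr11:87126825-87127124 on the plus strand, chr17:24960574-24960873 on the minus strand and chr6:116673787-116674086 on the minus strand.
Trim37: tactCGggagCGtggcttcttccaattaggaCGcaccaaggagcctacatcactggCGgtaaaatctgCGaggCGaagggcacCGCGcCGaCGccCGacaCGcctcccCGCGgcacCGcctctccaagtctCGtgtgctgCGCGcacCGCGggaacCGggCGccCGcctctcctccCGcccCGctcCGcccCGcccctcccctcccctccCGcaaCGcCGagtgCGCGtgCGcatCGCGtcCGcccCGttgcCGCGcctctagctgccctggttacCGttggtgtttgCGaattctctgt
Hn1l: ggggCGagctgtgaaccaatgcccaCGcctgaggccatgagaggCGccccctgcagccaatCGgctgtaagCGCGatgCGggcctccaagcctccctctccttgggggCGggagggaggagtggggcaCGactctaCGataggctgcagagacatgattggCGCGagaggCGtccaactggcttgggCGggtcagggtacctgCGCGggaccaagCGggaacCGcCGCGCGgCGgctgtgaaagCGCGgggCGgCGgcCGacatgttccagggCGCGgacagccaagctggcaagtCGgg
Rassf4: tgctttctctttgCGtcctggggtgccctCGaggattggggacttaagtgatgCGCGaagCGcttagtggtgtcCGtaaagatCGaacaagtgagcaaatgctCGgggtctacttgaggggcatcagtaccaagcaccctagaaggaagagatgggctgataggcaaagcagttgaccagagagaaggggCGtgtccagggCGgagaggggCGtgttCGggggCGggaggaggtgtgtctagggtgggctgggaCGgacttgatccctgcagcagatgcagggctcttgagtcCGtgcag
The Trim37 window held 41 CG dinucleotides, the Hn1l window 30 and the Rassf4 window 15. Over the 9 windows the number ran between 8 and 41, against a median of 21 in 7836 windows of tested genes and 7 in all 32851 windows. At least 8 were present in 83.7% of tested genes' windows and 48.6% of all windows, so CG-rich starts are common among expressed genes. The motif GGGCGG, searched on both strands, was in 7 of the 9 windows, 64% of tested genes' windows and 35.7% of all windows. CCAAT was in 3 windows (36.7% of tested genes' windows, 37.4% of all) and CCGGAAG in 2 (18.8% and 8.86%). TATAAA was in 0 windows (7.2% and 13.6%). None of these 4 motifs contains another, and a match is only a match of letters.

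Levels are given as CPM, the count scaled to 1000000 gene counts of the library. Gene counts summed to between 25530333 and 41508589 per library, so that 3 counts, taken as the floor, equal 0.0723 to 0.118 CPM. The 27 values of the 9 genes in anti-PD-1 libraries lay between 0 and 14 counts. Of these, 11 were at or under the floor of 3 counts, 3 were exactly 0, and the highest was 0.409 CPM. The reads carry no molecular identifiers, and floors cover counting error only. In bulk RNA, fewer cells that express a gene and less RNA per cell cannot be told apart.

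Some libraries stood apart over the whole transcriptome. Anti-CTLA-4 replicate 2 had 2662 genes at 5 CPM or more, against 4209 to 6309 in the other 8 libraries, and 64.4% of the 7858 tested genes were below 1 CPM in it. Anti-PD-1 replicate 2 came next, with 4209 genes at 5 CPM and 46.6% of tested genes below 1 CPM, against 23.3% to 36.3% in the remaining 7. The summed level of 10 CD4 T cell identity genes was lowest in anti-CTLA-4 replicate 2, at 6652 CPM, and 15642 to 22520 CPM elsewhere. The 10 genes did not move together. Cd4, Cd3e, Cd28, Icos, Foxp3, Il2ra and Ptprc were each lowest in that library. Cd3d (696 CPM), Cd3g (649 CPM) and Trac (632 CPM) were instead higher there than in any other library. Cd4 itself was at 616 to 808 CPM in anti-PD-1 libraries, at 440, 24.5 and 308 CPM after anti-CTLA-4, and at 324 to 599 CPM in Control libraries. Cd8a and all 5 natural killer cell markers had 0 counts in every library, while Cd8b1 was at 125 CPM in anti-PD-1 replicate 3 and at most 0.118 CPM elsewhere.

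Trim37, the centrosome regulator, had 0.196, 0.302 and 0.409 CPM (5, 10 and 14 counts) in anti-PD-1 replicates 1, 2 and 3. It had 0.0985, 1032 and 123 CPM in replicates 1, 2 and 3 of anti-CTLA-4, and 94.6, 12.2 and 166 CPM in Control replicates 1, 2 and 3. Anti-CTLA-4 replicate 1 was thus as low as the anti-PD-1 libraries, and lower than each of them. Group means were 0.302 ± 0.107 CPM with anti-PD-1, 385 ± 564 CPM under anti-CTLA-4 and 90.8 ± 76.7 CPM in Control mice (SD, n = 3 each).

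Ebna1bp2, of ribosome assembly, had 0.196, 0.181 and 0.321 CPM (5, 6 and 11 counts) in the anti-PD-1 libraries. It was at 119, 613 and 290 CPM after anti-CTLA-4, and the Control libraries had 40.2, 91.4 and 0.140 CPM. All 3 anti-PD-1 libraries were above Control replicate 3, so these groups overlap, whereas every anti-CTLA-4 library was far above every anti-PD-1 library. The means were 0.233 ± 0.0771 CPM with anti-PD-1, 341 ± 251 CPM under anti-CTLA-4 and 43.9 ± 45.8 CPM in Control mice (SD, n = 3 each).

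Hn1l, the NAADP-binding protein, had 0.118, 0.332 and 0.263 CPM (3, 11 and 9 counts) in the anti-PD-1 libraries. The anti-CTLA-4 libraries had 85.2, 641 and 102 CPM and the Control libraries 97.3, 43.8 and 60.5 CPM. Hn1l was the only one of the 9 genes above 5 CPM in all 6 other libraries, and no other library came near the anti-PD-1 level. Its means were 0.238 ± 0.110 CPM with anti-PD-1, 276 ± 316 CPM under anti-CTLA-4 and 67.2 ± 27.4 CPM in Control mice (SD, n = 3 each).

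Rassf4, of the Ras-association family, had 0, 0.0302 and 0.0584 CPM (0, 1 and 2 counts) in the anti-PD-1 libraries, all under the floor. It had 0.0656, 588 and 0.490 CPM after anti-CTLA-4 and 15.9, 40.4 and 0.0838 CPM in the Control libraries. Only 3 of the 6 other libraries reached 5 CPM, and the rest were below 1 CPM. Anti-CTLA-4 replicate 1 had 2 counts, as many as anti-PD-1 replicate 3.

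Dock1, the Rac exchange factor, had 0, 0 and 0.117 CPM (0, 0 and 4 counts) in the anti-PD-1 libraries. It had 58.0, 468 and 4.68 CPM after anti-CTLA-4 and 0.0723, 0.161 and 26.2 CPM in the Control libraries. A pair of Control libraries was therefore near the anti-PD-1 level, and Control replicate 1 was below anti-PD-1 replicate 3.

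Clcn6, the endosomal exchanger, had 0.0392, 0.121 and 0.117 CPM (1, 4 and 4 counts) in the anti-PD-1 libraries. It had 0.0328, 468 and 0.0612 CPM after anti-CTLA-4 and 22.9, 85.4 and 17.1 CPM in the Control libraries. Anti-CTLA-4 replicates 1 and 3 were within or below the anti-PD-1 range, while every Control library was far above it.

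Atg4c, the autophagy protease, had 0.0783, 0.0604 and 0.117 CPM (2, 2 and 4 counts) in the anti-PD-1 libraries. The anti-CTLA-4 libraries had 1.15, 626 and 0.520 CPM and the Control libraries 1.81, 35.2 and 0.419 CPM. Atg4c was low almost everywhere, with 2 of the 6 other libraries at 5 CPM, although all 6 were above the anti-PD-1 libraries.

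Pdxk, the vitamin B6 kinase, had 0.0783, 0.0604 and 0.146 CPM (2, 2 and 5 counts) in the anti-PD-1 libraries. The anti-CTLA-4 libraries had 1.51, 390 and 128 CPM and the Control libraries 68.3, 58.5 and 12.2 CPM. All 6 were above the anti-PD-1 libraries, the lowest of them being anti-CTLA-4 replicate 1. Of its exon bases, 2104 (39.0%) are shared with 4921516A02Rik on the opposite strand, which has no row in the table used here. The strand setting of the counting is not stated in the labels, so reads of that gene and of Pdxk may not be separated.

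Abi3bp, the matrix protein, had 0.274, 0.151 and 0.409 CPM (7, 5 and 14 counts) in the anti-PD-1 libraries. It had 0.295, 1129 and 13.6 CPM after anti-CTLA-4 and 27.1, 63.8 and 36.6 CPM in the Control libraries. Anti-CTLA-4 replicate 1 fell inside the anti-PD-1 range, and the Control libraries stood at 42.5 ± 19.0 CPM (SD, n = 3).

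**Figure D1:**
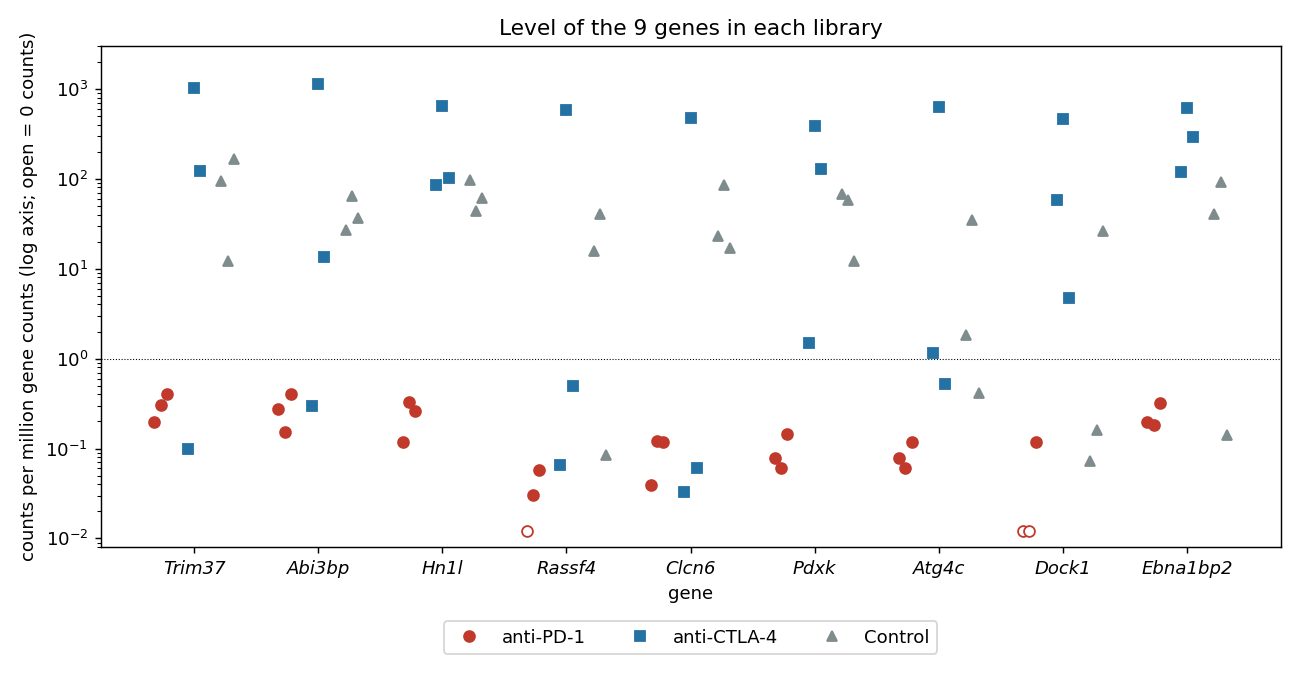
CPM of each of the 9 genes (y axis, log scale) in each library, 1 point per library, with circles for anti-PD-1, squares for anti-CTLA-4, triangles for Control, open circles for 0 counts and a dotted line at 1 CPM. The anti-PD-1 points lie at or below 0.409 CPM, and anti-CTLA-4 replicate 2 is the highest point of every gene, between 390 and 1129 CPM.

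In the 6 other libraries, 12 of the 54 values of the 9 genes were also below 1 CPM. Counted by library, 9 of the 9 genes were below 1 CPM in each anti-PD-1 library, 4, 0 and 3 in the anti-CTLA-4 replicates in their order, and 1, 1 and 3 in the Control replicates. Every anti-PD-1 library was below every Control library for 7 genes, all but Dock1 and Ebna1bp2. Every anti-PD-1 library was below every anti-CTLA-4 library for 6 genes, all but Trim37, Abi3bp and Clcn6. Hn1l, Pdxk and Atg4c were below all 6 others. Rassf4 was too in CPM, but anti-PD-1 replicate 3 and anti-CTLA-4 replicate 1 both had 2 counts of it, so that order comes from library size alone. Library medians over the 9 genes were 0.0783, 0.121 and 0.146 CPM in anti-PD-1 replicates 1, 2 and 3, then 1.15, 613 and 13.6 CPM in the anti-CTLA-4 replicates and 27.1, 43.8 and 17.1 CPM in the Control replicates.

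A single library carried most of the reads of these genes. Anti-CTLA-4 replicate 2 held the highest CPM of all 9, and between 55.3% (Ebna1bp2) and 94.7% of each gene's counts over all libraries. Its level was 2.11-fold that of the next library for Ebna1bp2 and 17.8-fold for Atg4c. Without that library, the highest level of a gene lay between 35.2 CPM (Atg4c) and 290 CPM (Ebna1bp2). Per kb of exon, Atg4c was at 187 CPM per kb there, Ebna1bp2 at 172, Abi3bp at 152, Trim37 at 143, Hn1l at 132, Clcn6 at 78.9, Pdxk at 72.2, Rassf4 at 63.9 and Dock1 at 50.1. On the same scale, Control means were 13.9 CPM per kb for Hn1l, 12.6 for Trim37, 12.4 for Ebna1bp2, 8.58 for Pdxk, 7.04 for Clcn6, 5.73 for Abi3bp, 3.73 for Atg4c, 2.04 for Rassf4 and 0.943 for Dock1. The first order comes from 1 library and has no spread. The Control order rests on 3 libraries, with SDs near or above many of the means, and differences between neighbours were not tested.

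Some markers of other cell types were also high in anti-CTLA-4 replicate 2. The summed level of 15 macrophage and monocyte markers was 4995 CPM there, against 245 to 857 CPM in the other 8 libraries, and all 15 reached 5 CPM in some library. In that library Tyrobp (1874 CPM) and Lyz2 (1492 CPM) led the sum, while C1qa, Apoe, Cd14 and Fcgr1 were at or below 0.169 CPM. That sum was 267 to 748 CPM in anti-PD-1 libraries, 523 to 4995 CPM after anti-CTLA-4 and 245 to 823 CPM in Control libraries. Of 11 fibroblast markers, 8 reached 5 CPM in some library, and Pdgfrb and Fap had 0 counts in all. Their sum was 95.1 to 381 CPM with anti-PD-1, 90.1 to 2429 CPM under anti-CTLA-4, the highest again in replicate 2, and 300.3 to 726 CPM in Control mice. In anti-CTLA-4 replicate 2, Postn (807 CPM), Col1a2 (615.5 CPM), Col3a1 (603 CPM) and Col1a1 (369 CPM) led that sum. Dcn was at 0.0281 CPM there, Lum and Fbln1 had 0 counts, and Sparc and Pdgfra were at 24.4 and 9.59 CPM. Of 8 neutrophil markers, 5 reached 5 CPM in some library and S100a9 had 0 counts in all. Their sum was 0.196 to 41.4 CPM with anti-PD-1, 7.96 to 1624 CPM under anti-CTLA-4, again highest in replicate 2, and 1.83 to 103 CPM in Control mice. In that library the sum was Il1b (1357 CPM) and Mmp9 (267 CPM) alone, and the other 6 neutrophil markers, S100a8, S100a9, Csf3r, Cxcr2, Ly6g and Retnlg, had 0 counts. The part of macrophages and fibroblasts in the high values of the 9 genes was not tested. The other lists did not peak in that library. The sum of 8 B cell markers was 405 to 962 CPM with anti-PD-1, 856 to 1089 CPM under anti-CTLA-4 and 416 to 723 CPM in Control mice, with Cd79a and Pax5 at 0. Of 8 dendritic cell markers 5 were at 0 in all libraries, as were 5 of 7 endothelial markers and 5 of 7 tumour epithelial markers; the sums reached 250, 299.8 and 57.8 CPM.

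The table was then searched with a rule like the one that picked the 9 genes. Below 1 CPM in all 3 libraries of a group and at 5 CPM or more in at least 4 of the other 6, there were 132 genes for anti-PD-1, 318 for anti-CTLA-4 and 32 for Control. Near absence in all 3 libraries of a group was thus not particular to anti-PD-1, and anti-CTLA-4 libraries had more such genes. Of the 9 genes, 6 were among the 132, while Rassf4, Dock1 and Atg4c were present in too few other libraries. Asking for presence in all 6 others left 3 genes for anti-PD-1, 22 for anti-CTLA-4 and 0 for Control. Of the 132 genes, 28 (21.2%) were highest in anti-CTLA-4 replicate 2, as all 9 were. Of the 132 genes, 114 were at or below 0.409 CPM, the highest level of the 9, in every anti-PD-1 library. The next of the 132 above that level were Thoc7 at 0.431, Tollip at 0.438 and Cope at 0.470 CPM in their highest anti-PD-1 library.

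**Figure D2:**
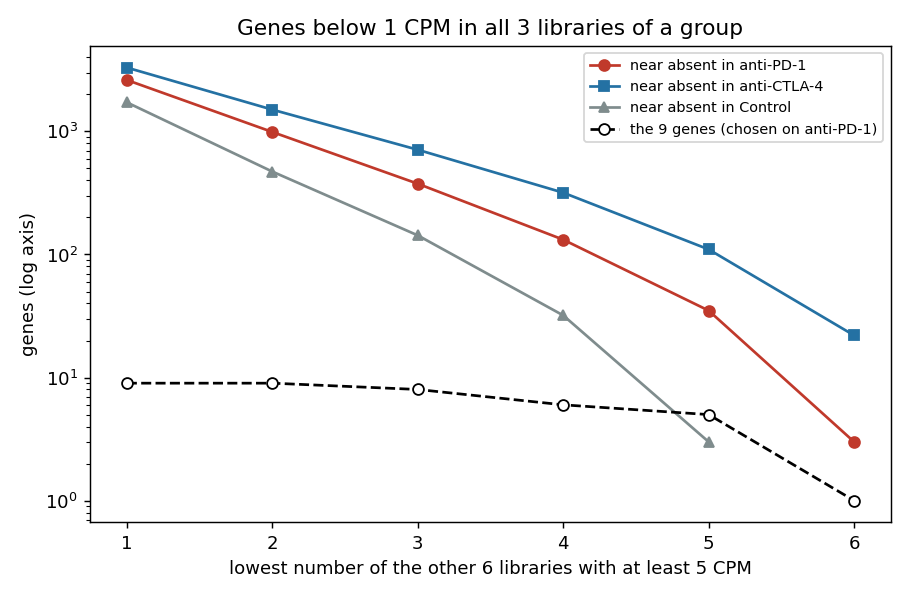
Number of genes (y axis, log scale) below 1 CPM in all 3 libraries of anti-PD-1, anti-CTLA-4 or Control and at 5 CPM or more in at least the number of other libraries on the x axis. At 4 other libraries the counts are 132, 318 and 32, and the anti-CTLA-4 line is above the others at each number; the dashed line counts the 9 genes, and the Control count of 0 at 6 libraries is not drawn.

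Ranked by the lowest of the 6 other libraries among genes below 1 CPM in all anti-PD-1 libraries, Hn1l came first at 43.8 CPM. Polr3c, a subunit of RNA polymerase III, came next, with 0.0783, 0 and 0 CPM in anti-PD-1 libraries, 87.9, 65.7 and 91.6 CPM after anti-CTLA-4 and 115, 68.6 and 33.1 CPM in Control libraries. Polr1a, the large subunit of RNA polymerase I, followed with 0.118, 0.0604 and 0.205 CPM in anti-PD-1 libraries, 63.5, 279 and 23.8 CPM after anti-CTLA-4 and 73.2, 98.0 and 21.1 CPM in Control libraries. With Hn1l these made the 3 genes present in all 6 other libraries. Akt2 had a lowest other library of 3.29 CPM, Mms22l of 2.85, Pdxk of 1.51 and Dync1li2 of 1.41 CPM. Atg4c held rank 13, Abi3bp 18, Ebna1bp2 32, Trim37 50, Dock1 71, Rassf4 76 and Clcn6 147.

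By another measure of likeness, the Pearson correlation over the 9 libraries of log2(CPM + 0.5) with the mean of the 9 genes, Col4a2 was closest (r = 0.953). Col4a2, a chain of basement membrane collagen, had 0.0783, 0 and 0.0584 CPM with anti-PD-1, 0, 258 and 16.0 CPM under anti-CTLA-4 and 19.5, 17.0 and 8.47 CPM in Control mice. Nfkbiz followed (r = 0.938) and was abundant in every library, with 181, 128 and 148 CPM with anti-PD-1, 277, 954 and 205 CPM under anti-CTLA-4 and 322, 493 and 324 CPM in Control mice. It is a nuclear regulator of NF-kB target genes. Bsg (r = 0.912), Ythdf2 (r = 0.910) and Mgea5 (r = 0.904) were next, and the 9 genes themselves had r between 0.656 (Dock1) and 0.955 (Abi3bp). Each of the 9 is part of that mean and was picked for its low anti-PD-1 level, which raises its r by construction. These correlations describe libraries that share depth and composition, above all anti-CTLA-4 replicate 2, and carry no test.

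The few reads of the 9 genes in anti-PD-1 libraries were set against the count of the same gene summed over the other 8 libraries. For 8 of the 9 genes this sum was at least 20000. Their counts were a median of 0.00857% of that sum in anti-PD-1 replicate 1, 0.0132% in replicate 2 and 0.0232% in replicate 3. Over all genes below 1 CPM with such a sum, the medians were 0.0119% (236 genes), 0.0145% (484 genes) and 0.0240% (160 genes). The medians of the 8 genes were slightly below those of all low genes with many reads elsewhere. The 8 were picked for near 0 reads in all 3 anti-PD-1 libraries, so a lower median can follow from the choice. The wider set had only to be below 1 CPM in the library at hand. For that wider set the median was 0.0132% to 0.0198% in the 6 other libraries. Low counts were also higher where the sum elsewhere was higher. In anti-PD-1 replicate 3 the median count was 0 for sums of 1000 to 5000, 2 for 5000 to 20000, 7 for 20000 to 50000 and 15 above that. Which part of these low counts is RNA of the library's own cells was not tested.

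**Figure D3:**
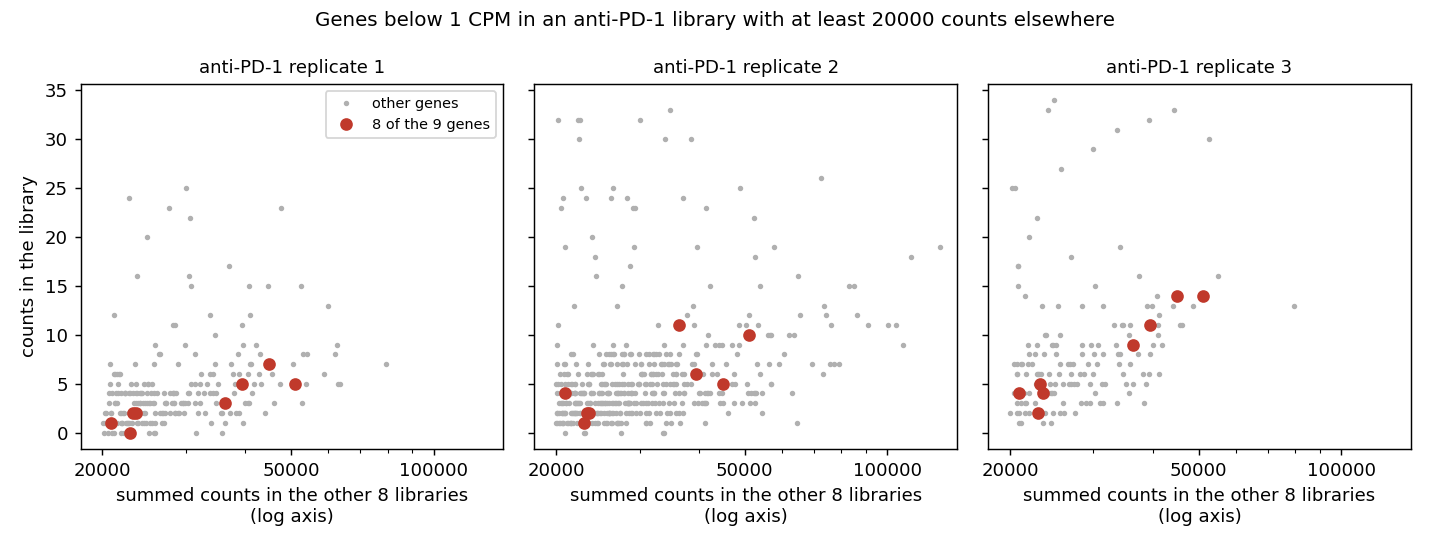
Counts in each anti-PD-1 library (y axis) against the counts summed over the other 8 libraries (x axis, log scale) for genes below 1 CPM in that library with at least 20000 counts elsewhere; red points are 8 of the 9 genes, grey points other genes. The red points reach 7, 11 and 14 counts in replicates 1, 2 and 3 and lie among the grey ones.

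Counts of near-identical copies could lower a gene. Hn1l had 3 stretches of at least 300 bases with 90% identity or more in transcripts of other genes (Gm6047, with 574 bases at 95.6%, Gm12181 and AY358078). Pdxk had such stretches in the overlapping 4921516A02Rik and in Pdxk-ps (691 bases at 90.4%). The other 7 genes had none. Copies with a row in the table had 0 counts in every library. Reads placed equally well in more than 1 position were set aside in the deposited counting, at 24.3% to 31.1% of all counts of a library.

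The question the series asks is how the antibodies differ. For the 9 genes only anti-CTLA-4 against Control was tested, since their choice set no direction between these groups. The choice did ask for presence in those same libraries, so the comparison is not free of it. None of the 9 passed the test, and in libraries of this spread a missing call does not show that a gene was unchanged. edgeR's quasi-likelihood test over 7858 genes called 0 of the 9 at a Benjamini-Hochberg adjusted p under 0.05, against a background of 0.369% of genes called. At an unadjusted p under 0.05 there were 7 of 9, against 11.3% of genes, and DESeq2, which called 12.8% of genes, gave none of the 9 an adjusted p. All 9 fitted log2 fold changes were positive, from 3.25 for Pdxk to 5.83 for Dock1, with a median of 4.15 beside 0.00766 over all genes tested. The genes were picked for presence outside the anti-PD-1 group, so their share under the unadjusted threshold is a description. The direction rested on anti-CTLA-4 replicate 2. Without that library, 5 of the 9 were negative, the median was -0.331 beside -0.118 over all genes, and 0 were called. At the unadjusted threshold edgeR then gave 0 of the 9, against 410 of 9308 genes.

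Abi3bp came closest, with a log2 fold change of 4.77 (SE 1.36, adjusted p = 0.0843, edgeR) on means of 381 ± 648 CPM under anti-CTLA-4 and 42.5 ± 19.0 CPM in Control mice (SD, n = 3 each). Its adjusted p was 0.0235 without anti-CTLA-4 replicate 1 and 0.0317 without replicate 3, and over all alternatives it lay between 0.0235 and 1.0. Without replicate 2 its log2 fold change was -2.37. Only 1 of the 3 anti-CTLA-4 libraries was above the Control libraries.

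Atg4c had a log2 fold change of 5.70 (SE 1.90, adjusted p = 0.234, edgeR) on 209 ± 361 CPM under anti-CTLA-4 and 12.5 ± 19.7 CPM in Control mice (SD, n = 3 each), and -3.72 without replicate 2. Trim37 stood at 3.58 (SE 1.29, adjusted p = 0.338, edgeR) and at -0.331 without that library. Rassf4, with 196 ± 340 CPM under anti-CTLA-4 and 18.8 ± 20.3 CPM in Control mice, had 5.0 with all libraries and -5.83 without replicate 2. Clcn6, with 156 ± 270 CPM and 41.8 ± 37.9 CPM in the same order, had 3.52 and -9.48.

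Hn1l, Pdxk, Dock1 and Ebna1bp2 kept a positive log2 fold change without replicate 2, at 0.661, 0.72, 1.95 and 2.44. With all libraries Ebna1bp2 had 4.15 (SE 1.57, adjusted p = 0.380, edgeR) and was the only one of the 9 whose anti-CTLA-4 libraries were all above all Control libraries. Groups did not overlap in this comparison for 11.9% of tested genes, so 1 of 9 is close to the background. Dock1 averaged 177 ± 253 CPM under anti-CTLA-4 and 8.80 ± 15.0 CPM in Control mice, and Pdxk 173 ± 198 and 46.3 ± 30.0 CPM in that order (SD, n = 3 each). The SD of the anti-CTLA-4 libraries was larger than the difference between the group means for all of the 9 genes but Ebna1bp2. The biological coefficient of variation fitted over all genes was 1.84.

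**Figure D4:**
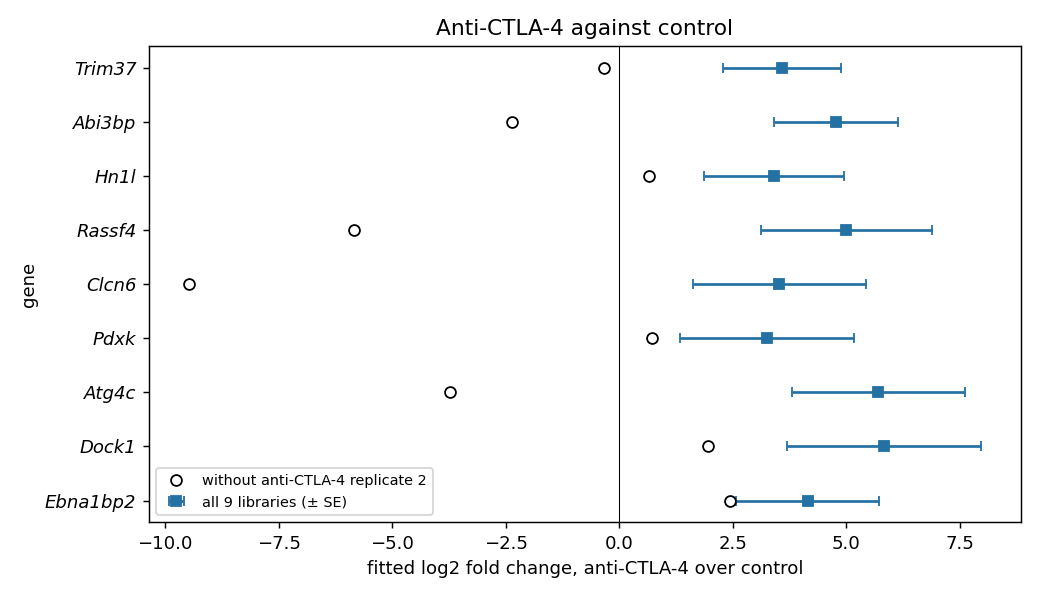
Fitted log2 fold change of each of the 9 genes, anti-CTLA-4 over Control (x axis), with all 9 libraries and an approximate SE, and without anti-CTLA-4 replicate 2. All 9 are positive with all libraries, between 3.25 and 5.83, and 5 are negative without that library.

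Partners and relatives of the 9 genes were read from 9 lists, 121 genes in the table, none of them among the 9. The list set beside Abi3bp was the Abi and WAVE complex, which is not known as a pathway of this matrix protein. The first point is how many of the 121 genes were also on in some libraries and off in others. Of the 101 that reached 5 CPM in a library, 83 (82.2%) were below 1 CPM in at least 1 other, against 88.4% of the 11126 such genes in the whole table, and 16 (15.8%) were at 5 CPM in all 9, against 9.64%. Below 1 CPM in all 3 libraries of a group but at 5 CPM elsewhere were 10 for anti-PD-1 (9.90%), 16 for anti-CTLA-4 (15.8%) and 7 for Control (6.93%). In the whole table the shares were 23.5%, 29.7% and 15.5% in the same order. Among the 10 were Ftsj3, Nop16 and Rrs1 of ribosome assembly, Shmt1 and Sptlc1 of vitamin B6 use, Rassf6, Gabarapl1, Ryr3 and Tpcn1. Sptlc1, a subunit of the vitamin B6 dependent first enzyme of sphingolipid synthesis, had at most 0.0392 CPM with anti-PD-1, 0 in all 3 anti-CTLA-4 libraries, and 14.8, 23.7 and 63.1 CPM in Control libraries.

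Among relatives and partners of the 9 genes, some were present in all 3 anti-PD-1 libraries and others were not. Rassf3, a relative of Rassf4, had 0, 0 and 67.7 CPM there, Dock5, a relative of Dock1, 0.0392, 0.0302 and 78.4 CPM, and Clcn7, a relative of Clcn6, 3.80, 0 and 0 CPM. Hn1, the relative of Hn1l, had 501, 472 and 459 CPM with anti-PD-1, 333, 342 and 533 CPM under anti-CTLA-4 and 264, 283 and 623 CPM in Control mice. It was above 5 CPM in every library, whereas Hn1l was at most 0.332 CPM with anti-PD-1. Dock2, the Rac exchange factor of lymphocytes, had 1297, 456 and 1076 CPM with anti-PD-1, 814, 2.31 and 1125 CPM under anti-CTLA-4 and 899.5, 957 and 1125 CPM in Control mice. Rac2, the haematopoietic Rac, had 612 to 924 CPM with anti-PD-1, 578, 0.675 and 434 CPM under anti-CTLA-4 and 326 to 622 CPM in Control mice. In anti-CTLA-4 replicate 2, where Dock1 was highest, Dock2 and Rac2 were therefore lowest. Stk4, the MST kinase that RASSF proteins bind, was likewise at 126 to 178 CPM with anti-PD-1, at 256, 0.281 and 145 CPM under anti-CTLA-4, with 121 to 225 CPM in Control mice.

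Gabarap, an ATG8 protein of the kind that ATG4 proteases process, had 804, 820 and 1102 CPM with anti-PD-1, 643, 153 and 888 CPM under anti-CTLA-4 and 1006, 879 and 843 CPM in Control mice. Atg4b, the main protease of that family, was itself below 1 CPM in some libraries of both antibody groups, at 84.2, 0 and 0.0584 CPM with anti-PD-1, 2.66, 0.0562 and 0 CPM under anti-CTLA-4 and 62.8, 75.2 and 1.96 CPM in Control mice. Odc1, a vitamin B6 dependent enzyme of polyamine synthesis, was abundant throughout, at 1763 ± 213 CPM with anti-PD-1, 1013 ± 325 CPM under anti-CTLA-4 and 1511 ± 179 CPM in Control mice (SD, n = 3 each). Lamp2, a lysosomal membrane protein, was at 320 ± 180, 174 ± 179 and 284 ± 78.0 CPM in the same groups. Ncl, nucleolin, was at 863 ± 115 CPM with anti-PD-1, 1225 ± 528 CPM under anti-CTLA-4 and 1389 ± 455 CPM in Control mice, and Npm1, nucleophosmin, at 445 ± 241, 1193 ± 524 and 897 ± 396 CPM.

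**Figure D5:**
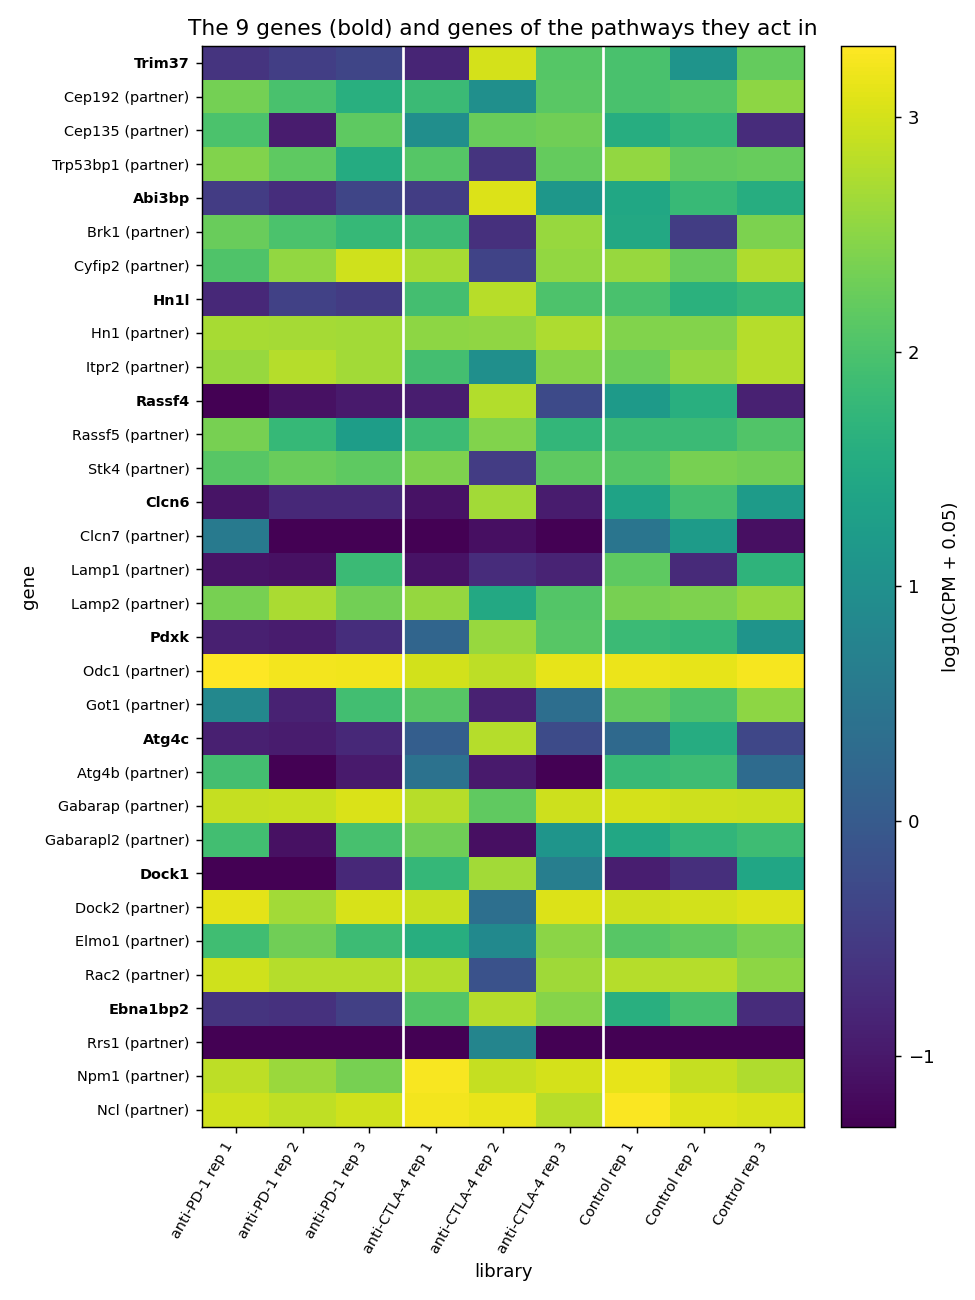
Level as log10(CPM + 0.05) (colour) of the 9 genes, in bold, and of partner genes of each list, some abundant and some low (rows), in the 9 libraries (columns, anti-PD-1, then anti-CTLA-4, then Control). The 9 genes are dark in the 3 anti-PD-1 columns, while Hn1, Odc1, Gabarap, Npm1 and Ncl are present in every column.

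In tests, 0 of the 90 partner genes that passed the filter on low counts were called by edgeR in any of the 3 comparisons. Here too a missing call does not show that a gene was unchanged. For anti-PD-1 against Control the background was 0.0764% called and 6.01% at an unadjusted p under 0.05, and 3 of the 90 partners were under that unadjusted threshold, all higher. They were Abi2, a subunit of the WAVE complex, Mcoln1, a lysosomal cation channel, and Usp28, a deubiquitinase of the response to centrosome loss. Each was near 0 in every Control library, and Usp28, for example, had 0.0392, 109 and 58.2 CPM with anti-PD-1 and at most 0.0965 CPM in Control mice. DESeq2, with a background of 11.5%, called 2 of 73 partners higher (Mcoln1, Usp28) and 5 lower (Ftsj3, Gabarapl1, Got2, Rassf6, Sptlc1). The median log2 fold change of the 90 was 0.154, beside 0.0741 over all genes tested. For anti-CTLA-4 against Control, with backgrounds of 11.3% unadjusted and 12.8% by DESeq2, 2 partners of 90 were higher (Abi2, Tfeb) and 1 lower (Sptlc1) at the unadjusted threshold. DESeq2 called 1 of 73 higher (Nop16) and 4 lower (Crkl, Rassf6, Sptlc1, Sptlc2). For anti-PD-1 against anti-CTLA-4, with 0.827% of genes called, 14.1% unadjusted and 15.3% by DESeq2, 5 partners were higher unadjusted (Crkl, Mcoln1, Ostm1, Prosc, Sass6) and 2 lower (Ftsj3, Npm1). DESeq2 called 5 of 73 higher and 4 lower there. These comparisons share libraries and are not independent of each other.

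By list, the 15 tested genes of large ribosomal subunit assembly had 2 positive log2 fold changes and a median of -1.23 for anti-PD-1 against Control, and 4 positive with a median of -1.4 for anti-CTLA-4 against Control. None of the 15 passed edgeR's test, with a lowest adjusted p of 0.839 for anti-PD-1 and 0.508 for anti-CTLA-4. Ftsj3, a methyltransferase of ribosomal RNA processing, was at 0.118, 0.0906 and 0.205 CPM with anti-PD-1, 112, 0.0843 and 41.7 CPM under anti-CTLA-4 and 45.8, 13 and 73.2 CPM in Control mice. It resembled Ebna1bp2 in the anti-PD-1 libraries but, unlike it, was near 0 in anti-CTLA-4 replicate 2. For anti-PD-1 against Control, the other lists had medians between -0.579 (7 vitamin B6 genes) and 1.4 (9 genes of centriole duplication). The 8 genes of the Abi and WAVE complex were at 0.498, the 11 of NAADP and calcium release at 0.523, the 7 of the RASSF and MST family at 0.332, the 10 of CLC exchangers and the endolysosome at 0.714, the 13 of ATG8 conjugation at 0.228 and the 10 of DOCK, ELMO and Rac at 0.47. None of these medians was tested, and no gene in these lists was called by edgeR.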

How the data were processed

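Sorted tumour-infiltrating ICOS+ CD4 T cells of each mouse were profiled by 76-nt paired reads on a HiSeq instrument, per the labels' protocols. The deposited values are raw counts, 1 row per gene symbol, which the authors did not normalize. Per the submitters' processing notes, the tools were TopHat2, HTSeq and DESeq2 and the build GRCm38; the labels state no versions, annotation or counting settings. HTSeq summary entries that name no gene were left out: genes took 32.9% to 40.7% of counts, alignments outside features 27.1% to 42.0%, alignments not unique 24.3% to 31.1% and ambiguous ones 0.631% to 1.13%. A gene with near-identical copies is therefore read low. Gene counts summed to 25530333 to 41508589 per library.

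CPM was computed from the counts with no further factor. Differences were tested with edgeR 4.0.16 in R 4.3.3 (quasi-likelihood, robust, TMM factors). All 9 libraries entered with the group alone as term, filterByExpr kept 7858 genes at a minimum count of 10, and p was adjusted over them (Benjamini-Hochberg). Standard errors, the change divided by the square root of F, are approximate. TMM factors were 0.407 in anti-CTLA-4 replicate 2 and 0.83 to 1.26 elsewhere, so fitted changes and ratios of CPM differ. Fitted changes of genes with libraries near 0 also depend on edgeR's prior count. Alternatives were DESeq2 1.42.0, RLE factors, no filter, a replicate block and each replicate left out. The edgeR fit was tested on simulated data with the same dispersion for every gene. It recovered nearly all changed genes at a low dispersion and none at the common dispersion of these libraries. Real genes differ in spread, and in the 3 comparisons of these data the fit called 6, 29 and 65 genes.

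The members and lists were chosen with earlier results of these data known. Named besides the 9 genes are the 5 genes most like them by level and by correlation. In each partner list the 2 with the highest mean CPM per kb are named, many of them only in the figure of partner levels. Most partner genes past a threshold are named too. Other partner genes were named after their values were seen. Gene models come from GENCODE M21, copies from BLAST+ 2.17.0 on its transcripts. Replicates are individual mice. Between libraries of the same replicate number, correlations of deviations from the group means ran from -0.0345 to 0.0182. Libraries of different numbers were not compared, and a batch shared across groups was not tested.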

Additional observations from a re-analysis of the deposited data

How the results depend on the processing

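Fitted counts of genes depended strongly on the method. For anti-PD-1 against Control, edgeR called 6 genes, 0 with RLE factors (511 at an unadjusted p under 0.05), 2 with no filter, 1 with the replicate block, 0 to 5 with a replicate left out, and DESeq2 742. For anti-CTLA-4 against Control the counts were 29, 0 with RLE factors (1118 unadjusted), 64 with no filter, 10 with the block, 0 to 79 with a replicate left out, the 0 without anti-CTLA-4 replicate 2 (410 unadjusted), and 803 by DESeq2. For anti-PD-1 against anti-CTLA-4 they were 65, 0 with RLE factors (1261 unadjusted), 98 with no filter, 12 with the block, 6 to 145 with a replicate left out, and 959 by DESeq2. RLE factors gave anti-CTLA-4 replicate 2 a factor of 0.0622 and moved the median log2 fold change of all genes for anti-CTLA-4 against Control to 0.563; the 9 genes' median was then 7.02. The cause of the other shifts was not tested.

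Partner genes called numbered 0 under every edgeR alternative, and 7, 5 and 9 by DESeq2 in the 3 comparisons. Of the 9 genes, 0 were called for anti-CTLA-4 against Control, and 0 to 1 with a replicate left out (Abi3bp). Without anti-CTLA-4 replicate 2 the log2 fold changes of Trim37, Abi3bp, Rassf4, Clcn6 and Atg4c turned to -0.331, -2.37, -5.83, -9.48 and -3.72, and with the replicate block that of Clcn6 to -2.41. Over the libraries left out in turn, their highest values were 4.14, 5.18, 5.98, 4.35 and 8.92 in the same gene order. The replicate numbers share no source in the labels, and whether they pair the libraries was not settled. Genes near absent in a group numbered 132 for anti-PD-1, 318 for anti-CTLA-4 and 32 for Control. They numbered 3, 22 and 0 when presence in all 6 others was asked, and 49 to 376, 162 to 761 and 6 to 92 with a replicate left out. Limits of 0.5 or 2 CPM and TMM-scaled CPM kept each within 1.5 times. With 0 to 14 counts in anti-PD-1 libraries, depth cannot separate low expression from absence.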
